A study of Mus musculus with 12 samples.

Results

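The Slc25 genes encode the mitochondrial carriers, the largest group of transporters in the mitochondrial inner membrane. All genes whose symbol is Slc25a followed by a number were taken as members, which gave 47 of the 21493 genes listed in the count files, and no measured value entered that choice. Of these, 40 had enough counts to be tested and 7 did not. Levels were measured by poly-A RNA sequencing of adult cardiomyocytes isolated from the hearts of 3-month-old mice by enzymatic perfusion with trypsin and collagenase D. There were 4 groups of 3 libraries: Des+/+ mice under basal conditions (non-swim), Des+/+ mice after swimming exercise (swim), and Des-/- mice, which lack the muscle intermediate filament protein desmin, without and with the same exercise. All mice, controls included, carried the αMHC-GFP transgene, a green fluorescent protein driven by the cardiac α-myosin heavy chain promoter, on a 129SV background, and each library pooled the cells of several mice, so that a library stands for a pool and not for an animal.

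Each carrier moves a particular set of small molecules across a membrane that is otherwise closed to charged solutes, usually by exchanging a molecule on one side for a molecule on the other. In the heart the adenine nucleotide carriers send ATP out and bring ADP in, the phosphate carrier supplies the phosphate for ATP synthesis, the carnitine-acylcarnitine carrier admits fatty acids for oxidation, and the aspartate-glutamate and oxoglutarate-malate carriers together form the malate-aspartate shuttle, which passes reducing equivalents from glycolysis to the respiratory chain. Other members carry cofactors, iron, nucleotides and amino acids that mitochondria use to build their own enzymes and DNA.

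Sequences upstream of 4 carriers are printed here because these carriers differ in the results below. Slc25a3 and Slc25a20 were among the members that fell most in Des-/- libraries, Slc25a5 differed less, and Slc25a24 went both ways. Each is the 100 bases before the annotated start (RefSeq promoter sequences, GRCm38.p6), 5′ to 3′ on the strand of the gene, and capitals mark GC boxes (GGGCGG on either strand).
Slc25a5, chrX:36795497-36795596, plus strand: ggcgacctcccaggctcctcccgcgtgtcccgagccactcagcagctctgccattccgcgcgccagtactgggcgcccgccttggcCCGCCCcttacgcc
Slc25a3, chr10:91124060-91124159, minus strand: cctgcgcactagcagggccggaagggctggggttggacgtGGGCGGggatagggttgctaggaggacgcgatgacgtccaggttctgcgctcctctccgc
Slc25a20, chr9:108661988-108662087, plus strand: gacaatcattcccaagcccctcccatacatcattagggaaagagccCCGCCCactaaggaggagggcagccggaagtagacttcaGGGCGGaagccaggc
Slc25a24, chr3:109123049-109123148, plus strand: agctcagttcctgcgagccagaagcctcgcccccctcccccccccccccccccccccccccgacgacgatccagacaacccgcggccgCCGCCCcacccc
All 4 stretches held a GC box. Over the RefSeq table it was found in the 100 bases before the start in 24 of 46 windows of Slc25 members (52.2%) and in 24.7% of all 32851 windows; CCAAT was found in 28.3% and 18.9%, and TATAAA in 4.35% and 5.56%, each searched on both strands. No match of one of these motifs overlapped a match of another in the stretches shown.

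Longer motifs were rare in the whole RefSeq promoter windows, downstream bases included, of the 36 members that the table holds. The cyclic AMP response element TGACGTCA was found in 2 members (5.56%, against 2.03% of all 27025 genes), Slc25a25 and Slc25a36, and these stretches are shown with the element in capitals.
Slc25a25, chr2:32424189-32424236, minus strand: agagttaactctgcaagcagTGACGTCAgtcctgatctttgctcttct
Slc25a36, chr9:97111175-97111222, minus strand: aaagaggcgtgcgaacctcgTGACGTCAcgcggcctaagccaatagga
The letters TCAAGGTCA, bound by estrogen-related receptors and found in 0.466% of all genes, were in 0 of the 36 windows, which says only that these letters are not there. Slc25a25 and Slc25a36 were not called by edgeR in any comparison described here.

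The libraries held between 4320819 and 12072443 reads assigned to genes, the smallest in the Des-/- swim group. The share of uniquely aligned reads that reverse-strand counting assigned to no feature moved with the groups. It was 34% to 39.3% in Des+/+ non-swim and 45.9% to 50.4% in Des+/+ swim libraries. In Des-/- libraries it was 34.2% to 52.3% (non-swim) and 57.2% to 64.5% (swim). Alignments that were not unique made up 23.4% to 25.7%, 29.1% to 31.9%, 23.4% to 28.5% and 31.4% to 37% of all alignments in the same order. The part of these shares in the differences below was not tested. Levels are given as CPM, counts scaled to a common library size with TMM factors, and levels of different genes are compared only as CPM per kb of exon. Des itself was at 973 to 3647 CPM in the Des+/+ libraries and at 50.3 to 101 CPM in the Des-/- libraries, in which reads still map to the locus. Slc25a10, Slc25a11, Slc25a23, Slc25a25, Slc25a26, Slc25a33, Slc25a35, Slc25a37 and Slc25a46 share exon bases with a gene on the opposite strand, and since the sources name both an unstranded and a directional library kit, reads of such partners may not be separable. Of all 100-base windows of their transcripts, 19% of those of Slc25a35 and 10.2% of those of Slc25a33 occur in other genes as well. Markers of cell types moved with genotype. Without swimming, 10 of 10 cardiomyocyte markers (Myh6, Tnnt2, Ryr2 and others) were lower in Des-/- libraries, with a median log2 change of -2.13, and their summed level was 55830 to 87280 CPM in Des+/+ and 5596 to 25480 CPM in Des-/- libraries. In the same comparison 9 of 9 fibroblast markers, 8 of 10 macrophage markers and 5 of the 6 erythroid markers tested were higher, as were 3 of the 4 lymphocyte markers tested, while 0 of 7 endothelial, 0 of 6 mural and 0 of the 3 adipocyte markers tested were called. The summed fibroblast level was 3320 to 3880 CPM in Des+/+ and 8440 to 40150 CPM in Des-/- libraries, and the summed macrophage level was 227 to 350 CPM and 427 to 4489 CPM. After swimming 1 cardiomyocyte marker was called lower, and 1 fibroblast marker and 1 of 7 endothelial markers (Vwf, log2 0.95 ± 0.25, edgeR adjusted p = 0.0348) were called higher. Called or not, 10 of 10 cardiomyocyte (median log2 -0.80) and 6 of 6 tested erythroid markers (-0.60) were below 0. Above 0 were 9 of 9 fibroblast (0.99), 10 of 10 macrophage (1.14) and 4 of 4 tested lymphocyte markers (0.99). Summed cardiomyocyte levels were 28290 to 48370 CPM in Des+/+ and 14900 to 25200 CPM in Des-/- libraries. Summed fibroblast levels were 2327 to 3417 CPM in Des+/+ and 4041 to 13710 CPM in Des-/- libraries. The Des-/- libraries numbered 3 had the lowest cardiomyocyte and the highest fibroblast sums of their groups. In such bulk samples fewer cells of a type and less RNA per cell cannot be told apart, and the part of cell composition in the carrier differences below was not tested.

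Libraries of desmin-deficient cardiomyocyte preparations without swimming had lower levels of the main ADP/ATP, phosphate, carnitine and malate-aspartate carriers. Of the 40 members tested, 22 differed between Des-/- and Des+/+ non-swim libraries, 18 lower and 4 higher (edgeR quasi-likelihood test, Benjamini-Hochberg adjusted p under 0.05 over all genes). Over all 13158 genes tested the same rule called 32%, 18% lower and 14% higher. The median log2 change of the members was -0.44 against 0.04 for all genes. The libraries of both genotypes did not overlap for 26 of 40 members (5 higher and 21 lower in Des-/-), that is 65%, against 47.9% of all genes (23% higher and 24.9% lower). Without both Des-/- libraries numbered 3, whose cell markers stood apart, 21 members were called. The share of all genes called in that fit is not given here. Summed over all members, the carriers made up 7266 to 10350 CPM in Des+/+ non-swim libraries and 2175 to 3545 CPM in Des-/- non-swim libraries. Slc25a4 and Slc25a3 together held 69.3% to 73.0% of the sum in these Des+/+ and 44.9% to 59.5% in these Des-/- libraries. The other members summed to 2231 to 2876 CPM and 1198 to 1437 CPM.

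Of the carriers for ADP/ATP exchange and phosphate, Slc25a4 and Slc25a3, which led the order by CPM per kb given below, and Slc25a5 were lower. Slc25a4 (chr8:46206797-46211284, GRCm38), the heart and muscle isoform of the adenine nucleotide carrier, was at 3631, 5631 and 4548 CPM in the Des+/+ non-swim libraries and at 1077, 1465 and 589 CPM in the Des-/- non-swim libraries. Every Des-/- library lay below every Des+/+ library, and the log2 change was -2.14 ± 0.35 (SE; edgeR adjusted p = 0.00143), or 22.7% of the Des+/+ level. Slc25a5 (chrX:36795651-36798807), the isoform of many tissues, was at 266, 242 and 244 CPM in Des+/+ and at 125, 147 and 164 CPM in Des-/- non-swim libraries, again without overlap. It fell by 0.79 ± 0.14 on the log2 scale (edgeR adjusted p = 0.00228). Of its 100-base windows, 8.33% are shared with other genes, so its counts carry that uncertainty. Slc25a31, the germ-cell isoform, was low at 0.99 to 2.36 CPM in Des+/+ and 2.38 to 5.25 CPM in Des-/- libraries, and did not pass the test (log2 1.24 ± 0.60, edgeR adjusted p = 0.135).

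Slc25a3 (chr10:91116574-91124059), the phosphate carrier, was at 1404, 1842 and 1585 CPM in Des+/+ and at 454, 643 and 388 CPM in Des-/- non-swim libraries. The groups did not overlap and the log2 change was -1.70 ± 0.24 (edgeR adjusted p = 0.000969). Slc25a20 (chr9:108662088-108684641), the carnitine-acylcarnitine carrier of fatty acid oxidation, was at 127, 257 and 131 CPM in Des+/+ and at 39.9, 53.0 and 34.6 CPM in Des-/- non-swim libraries, a fall by 2.01 ± 0.29 on the log2 scale (edgeR adjusted p = 0.00104). Des+/+ non-swim replicate 2 was the highest library in both carriers, and it also had the highest cardiomyocyte marker sum of its group.

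Both arms of the malate-aspartate shuttle were lower. Slc25a11 (chr11:70644196-70647479), the oxoglutarate-malate carrier, was at 366, 547 and 409 CPM in Des+/+ and at 112, 174 and 77.3 CPM in Des-/- non-swim libraries (log2 -1.86 ± 0.30, edgeR adjusted p = 0.00141). Slc25a12, the aspartate-glutamate carrier aralar, was at 211, 334 and 221 CPM and at 67.2, 108 and 57.6 CPM (log2 -1.72 ± 0.27, edgeR adjusted p = 0.00122). Slc25a13 (chr6:6041218-6217173), its paralog citrin, was at 125, 154 and 114 CPM and at 23.7, 53.2 and 17.1 CPM (log2 -2.07 ± 0.36, edgeR adjusted p = 0.00195). None of these carriers overlapped between genotypes, and in each the Des-/- library numbered 3 was the lowest and the library numbered 2 the highest of its group, the same order as their cardiomyocyte marker sums. Slc25a34 (chr4:141618824-141623821), a member without an established substrate, had the largest negative change among the tested members, from 136, 228 and 137 CPM to 26.6, 54.7 and 10.5 CPM (log2 -2.45 ± 0.52, edgeR adjusted p = 0.00522). Without Des-/- non-swim replicate 2 the log2 change was -3.18 for Slc25a34 and -2.69 for Slc25a13, and both were called in all 12 fits that left out a single library.

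**Figure D1:**
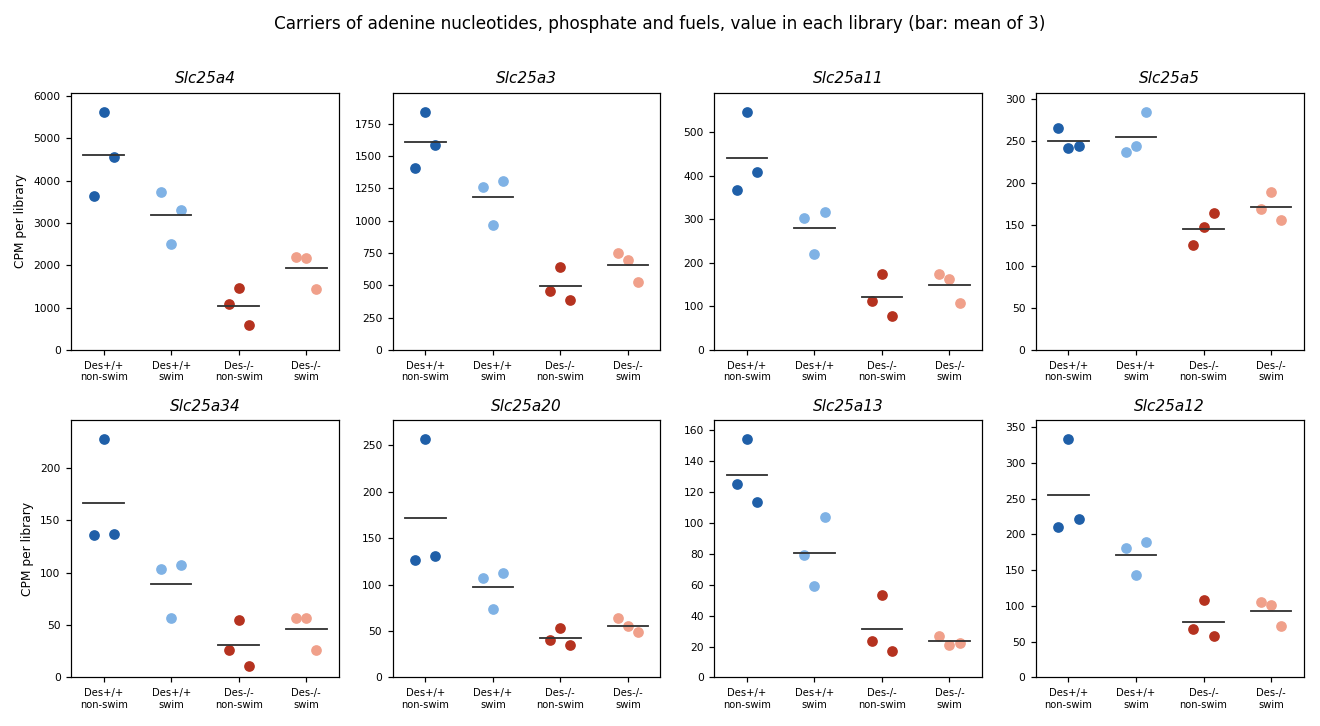
Level of 8 Slc25 carriers in each library, in CPM on a linear axis from 0, for the 4 groups (points are the 3 libraries, bars their mean). In the Des-/- non-swim group Slc25a4 sits between 589 and 1465 CPM, below the 3631 to 5631 CPM of the Des+/+ non-swim group, and the other 7 carriers are likewise separated by genotype without swimming.

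Further kinds of carrier were lower as well. Among the 7 tested amino acid carriers 4 were lower and 0 higher: beside Slc25a12 and Slc25a13 these were Slc25a22, a glutamate carrier (log2 -0.61 ± 0.16), and Slc25a29, a carrier of basic amino acids at 11.6 to 14.0 CPM in Des+/+ and 3.15 to 7.02 CPM in Des-/- libraries (log2 -1.29 ± 0.45). Among the 7 cofactor carriers 5 were lower, among them Slc25a42, a coenzyme A carrier (log2 -1.91 ± 0.39), Slc25a26, the S-adenosylmethionine carrier (-1.34 ± 0.18), Slc25a16, linked to coenzyme A (-0.73 ± 0.16), and Slc25a51, the NAD+ carrier (-0.41 ± 0.13). The edgeR adjusted p of these named carriers lay between 0.000904 and 0.0473. Slc25a46, an outer membrane member involved in mitochondrial shape, fell from 80.2 to 97.4 CPM to 40.3 to 49.2 CPM (log2 -1.06 ± 0.13, edgeR adjusted p = 0.00082). Slc25a33, a pyrimidine nucleotide carrier (chr4:149744036-149774277), fell from 25.5, 28.3 and 29.1 CPM to 7.12, 8.95 and 6.56 CPM (log2 -1.87 ± 0.35, edgeR adjusted p = 0.00279). Its libraries were close together within each genotype, and its relative Slc25a36 did not pass the test (log2 -0.24 ± 0.18, edgeR adjusted p = 0.337). The call of Slc25a29 held in 2 of the 12 fits that left out a single library, in none of those that left out a library of the compared groups, and in 4 of 7 other alternatives. That of Slc25a51 held in 8 of 12 and 4 of 7. Their largest edgeR adjusted p over the leave-one-out fits were 0.139 and 0.12, each without Des-/- non-swim replicate 3. The call of Slc25a22 was lost without Des+/+ non-swim replicate 2 (edgeR adjusted p = 0.051).

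The 4 members that were higher in Des-/- libraries without swimming were Slc25a1, Slc25a45, Slc25a37 and Slc25a24. Slc25a1, the citrate carrier that exports citrate for lipid synthesis, rose from 10.3, 17.4 and 14.5 CPM to 31.7, 25.5 and 38.0 CPM (log2 1.17 ± 0.28, edgeR adjusted p = 0.00997). Slc25a45 rose from 15.7, 10.5 and 14.4 CPM to 25.6, 21.6 and 30.4 CPM (log2 0.94 ± 0.21, edgeR adjusted p = 0.00611). Slc25a37, mitoferrin-1, the iron carrier best known from developing red cells, rose from 23.7, 23.1 and 27.9 CPM to 35.3, 35.8 and 43.3 CPM (log2 0.61 ± 0.15, edgeR adjusted p = 0.0109). In all of these the genotypes did not overlap, and the Des-/- library numbered 3 was the highest of its group. That library also had the highest fibroblast, macrophage and erythroid sums of the Des-/- non-swim group. The summed erythroid markers were at 180 to 547 CPM in Des+/+ and 1471 to 4586 CPM in Des-/- non-swim libraries, and their part in the Slc25a37 difference was not tested.

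Slc25a24 and Slc25a23, calcium-regulated carriers that exchange ATP-Mg for phosphate, went in opposite directions without swimming. Slc25a24 (chr3:109123149-109168457) was at 27.9, 28.3 and 28.8 CPM in Des+/+ and at 35.2, 39.4 and 51.2 CPM in Des-/- non-swim libraries (log2 0.57 ± 0.14, edgeR adjusted p = 0.0127). Its Des+/+ libraries were close together, whereas Des-/- replicate 3 stood above the other two, and without it the change was 0.40 with an edgeR adjusted p of 0.052. Slc25a23 (chr17:57043711-57059863) was at 49.9, 72.5 and 53.4 CPM and at 29.9, 35.6 and 19.4 CPM (log2 -1.05 ± 0.24, edgeR adjusted p = 0.0082). The other tested carrier of this kind, Slc25a25, overlapped between genotypes (log2 0.54 ± 0.44, edgeR adjusted p = 0.374).

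Some members did not pass the test without swimming and had a change above 0, against the direction of the median. They were Slc25a31 and Slc25a25 (given above), the dicarboxylate carrier Slc25a10 (log2 0.45 ± 0.22), the peroxisomal carrier Slc25a17 (0.09 ± 0.20), Slc25a35 (0.06 ± 0.34) and, among the uncoupling protein relatives, Slc25a30 (0.27 ± 0.17) and Slc25a27 (0.23 ± 0.32). The iron and glutathione carriers other than Slc25a37 did not pass the test, with log2 values for Slc25a28, mitoferrin-2, of -0.15 ± 0.20, for Slc25a39 of -0.38 ± 0.14 and for Slc25a40 of -0.14 ± 0.22 (edgeR adjusted p of 0.588, 0.0608 and 0.658). The remaining uncalled members, Slc25a14, Slc25a15, Slc25a32, Slc25a38, Slc25a44, Slc25a47 and Slc25a53, had log2 values between -0.51 and -0.04. Members without enough counts were Slc25a21, Slc25a41, Slc25a48 and Slc25a54, at or under 3 counts in every library, and Slc25a2, Slc25a18 and Slc25a43, at up to 10, 16 and 12 counts in a library. Slc25a18, a glutamate carrier, had 16, 8 and 7 counts in the Des-/- swim libraries and 0 to 4 counts in all others.

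**Figure D2:**
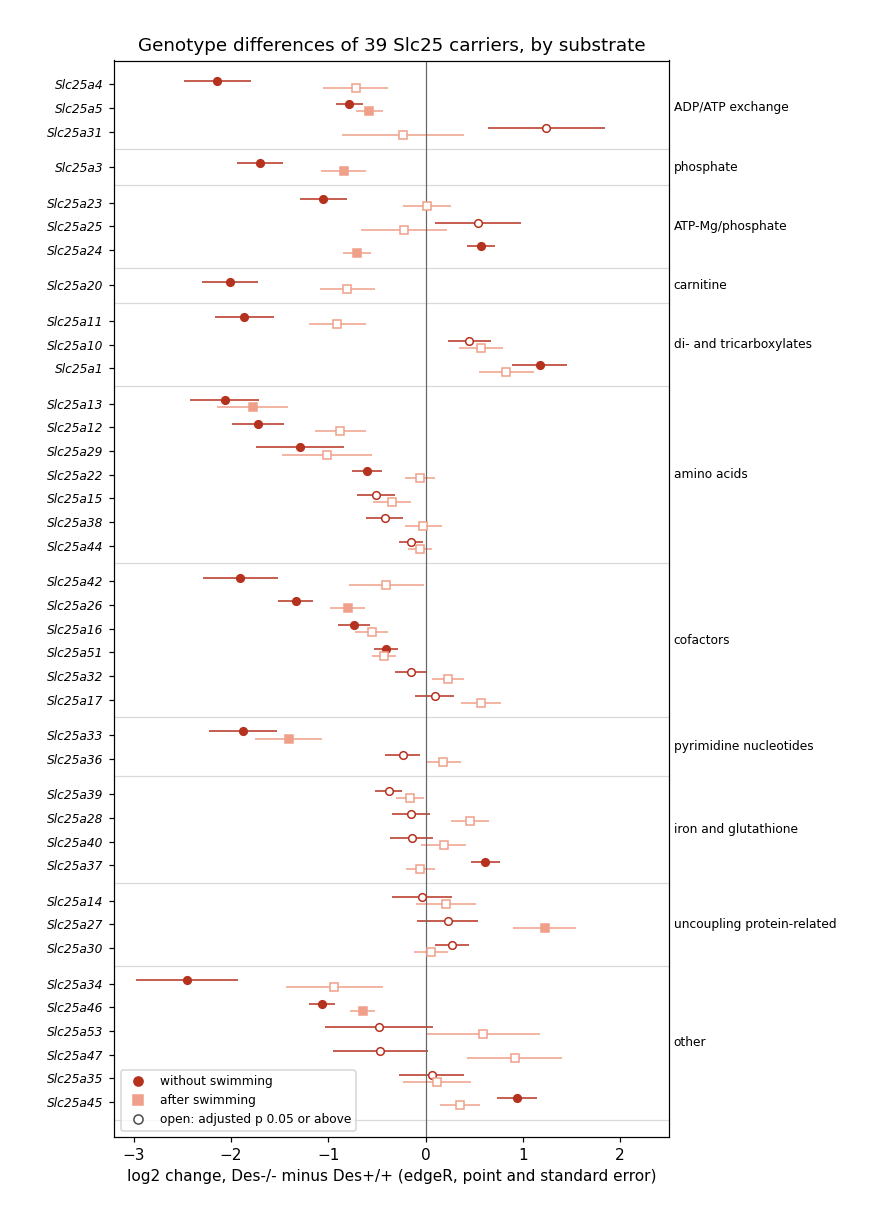
Log2 change between Des-/- and Des+/+ libraries for 39 of the 40 tested Slc25 carriers, grouped by substrate, without swimming (dark circles) and after swimming (light squares), with standard errors; filled symbols passed the test. Dark filled points run from -2.45 for Slc25a34 to 1.17 for Slc25a1, and most light points sit nearer to 0.

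The order of the carriers by level was also compared, as CPM per kb of exon. In Des+/+ non-swim libraries Slc25a4 led with 1956 ± 425 CPM per kb (SD, n = 3), followed by Slc25a3 with 290 ± 39.7, Slc25a11 with 208 ± 44.5, Slc25a5 with 152 ± 7.98 and Slc25a34 with 62.5 ± 19.7. The ranges over libraries overlapped between Slc25a3 (253 to 332 CPM per kb) and Slc25a11 (173 to 258), and not between the other neighbours in this order. In Des-/- non-swim libraries Slc25a4 still led with 444 ± 186 CPM per kb, while Slc25a3 (89.2 ± 23.9) and Slc25a5 (88.3 ± 11.8) stood at nearly the same level, followed by Slc25a11 with 57.2 ± 23.2 and Slc25a39, a glutathione carrier, with 32.2. Carriers abundant in Des+/+ libraries were lower by more than those scarce there. The level was taken from the Des+/+ swim libraries, which are not part of the change without swimming but share the genotype of its reference. Ranking on them favours carriers that are high in Des+/+, so level and change are not independent. By this ranking the 10 members of highest level had a median log2 change of -1.87, and 9 of them were called lower. The other 30 had a median of -0.15 and 9 called lower. This split is not given for all genes. Spearman's rho between level and change was -0.435 over 40 members and -0.296 over 13157 genes. These are correlations across genes of the same libraries, which share depth and cell composition, and genes are not independent replicates.

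**Figure D3:**
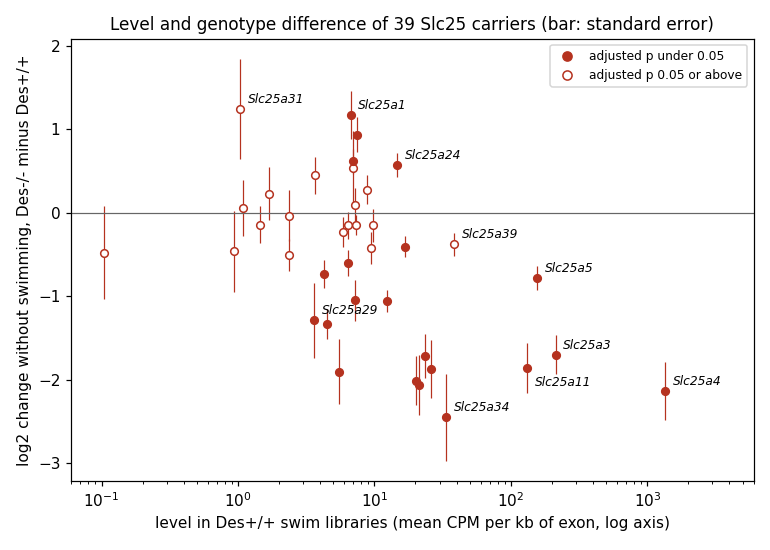
Mean level in Des+/+ swim libraries (CPM per kb of exon, log axis) against the log2 change between Des-/- and Des+/+ libraries without swimming (linear axis, bars are standard errors) for 39 Slc25 carriers; filled points passed the test. Slc25a4, Slc25a3 and Slc25a11 lie at the lower right, at log2 changes of -2.14, -1.70 and -1.86.

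After swimming Slc25a13, Slc25a33 and Slc25a3 were among the carriers that were lower in Des-/- libraries, and Slc25a27 was higher. Of the 40 members 8 passed the test between Des-/- and Des+/+ swim libraries, 7 lower and 1 higher, where 10.6% of all genes were called (5.57% lower and 5.01% higher). The median log2 change of the members was -0.11 against 0.02 for all genes, and libraries did not overlap for 19 members (5 higher and 14 lower, 47.5%, against 35.9% of all genes, 17.3% higher and 18.6% lower). Slc25a13 had the largest fall, from 79.3, 59.2 and 104 CPM to 26.6, 21.2 and 22.5 CPM (log2 -1.78 ± 0.36, edgeR adjusted p = 0.0172). Slc25a33 was at 48.3, 23.0 and 76.3 CPM in Des+/+ and at 22.5, 17.3 and 15.6 CPM in Des-/- swim libraries (log2 -1.41 ± 0.34, edgeR adjusted p = 0.0278), with the Des+/+ libraries far apart. Slc25a24 (described below with swimming), Slc25a3, Slc25a26, Slc25a46 and Slc25a5 were lower too. Slc25a3 fell by 0.84 ± 0.23, Slc25a26 by 0.80 ± 0.18, Slc25a46 by 0.65 ± 0.13 and Slc25a5 by 0.58 ± 0.14 on the log2 scale (edgeR adjusted p between 0.0172 and 0.0415). The member that rose was Slc25a27, an uncoupling protein relative best known from the brain, from 6.85, 8.56 and 4.55 CPM to 16.4, 17.1 and 13.6 CPM (log2 1.23 ± 0.32, edgeR adjusted p = 0.0362). No call of this comparison was kept in all fits that leave out a single library: 0 members were called without Des+/+ swim replicate 3, 2 without Des-/- swim replicate 1, 3 without Des+/+ swim replicate 1 or Des-/- swim replicate 3, and 4 without Des-/- swim replicate 2. How many of all genes kept their calls in these smaller fits is not given here.

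Slc25a4 after swimming was at 3742, 2510 and 3314 CPM in Des+/+ and at 2192, 2181 and 1434 CPM in Des-/- libraries. The groups still did not overlap, but the change of -0.72 ± 0.34 did not pass the test (edgeR adjusted p = 0.172). Slc25a20 (-0.80 ± 0.28), Slc25a11 (-0.91 ± 0.29) and Slc25a12 (-0.88 ± 0.26) likewise had no overlapping libraries and edgeR adjusted p of 0.0856, 0.0677 and 0.0526. Of the 18 members called lower without swimming, 16 were below 0 after swimming and 17 were nearer to 0, with medians of -1.52 and -0.76. These members were picked on their values without swimming. Over all members 70% were nearer to 0 after swimming, and over all genes 60.6%. In both comparisons 7 members were called, 6 of them lower in both; Slc25a24 was higher without and lower after swimming, and Slc25a27 was called after swimming alone, a difference between its changes that did not pass the test (log2 1.00 ± 0.45, edgeR adjusted p = 0.303).

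The difference between swim and non-swim libraries was tested within each genotype, and 0 of 40 members were called in either. Over all genes edgeR called 0.0912% in Des+/+ and 0.0228% in Des-/- cardiomyocytes. At an unadjusted edgeR p under 0.05 there were 14 of 40 members in Des+/+ and 5 of 40 in Des-/-. Over all 13158 genes tested, 2697 and 2201 had such a p. DESeq2 called 3 and 1 members, and its share over all genes, which may differ from that of edgeR, is not given here. The median log2 change was -0.28 in Des+/+ (-0.08 for all genes) and 0.23 in Des-/- cardiomyocytes (-0.01 for all genes). In Des+/+ 3 members were higher and 16 lower without overlap of libraries (47.5%, against 31.3% of all genes, 12.5% higher and 18.7% lower); in Des-/- 5 were higher and 2 lower (17.5%, against 19.4% of all genes, 10.4% higher and 9% lower). The summed carrier level was 5218 to 7007 CPM in Des+/+ swim libraries, under the non-swim range of 7266 to 10350 CPM, and 3293 to 4478 CPM in Des-/- swim libraries, which overlapped the non-swim range of 2175 to 3545 CPM. Cardiomyocyte markers had median log2 changes of -0.83 in Des+/+ and 0.48 in Des-/- and 0 of 10 called. In Des+/+ the median of the 6 erythroid markers was 2.47, with 6 of 6 above 0 and at an unadjusted p under 0.05. In Des-/- the fibroblast median was -0.98 (9 of 9 below 0, 5 at an unadjusted p under 0.05), the macrophage median -1.53 (10 of 10 below 0, 3 at such a p) and the erythroid median -1.22 (6 of 6 below 0, 1 at such a p). edgeR called 0 of these markers in either comparison, and their part was not tested.

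Whether swimming changed the carriers differently in Des-/- and Des+/+ was tested as an interaction, and edgeR called 0 of 40 members and 0% of all genes. At an unadjusted p under 0.05 there were 13 members (32.5%, against 16.3% of all genes). DESeq2 called 2, Slc25a24 and Slc25a4, and its share over all genes is not given here. The smallest interaction p belonged to Slc25a24, which was at 52.1, 45.8 and 53.9 CPM in Des+/+ swim and at 30.0, 33.2 and 29.9 CPM in Des-/- swim libraries. Against the non-swim values given above, it was higher after swimming in Des+/+ (log2 0.84 ± 0.14, edgeR adjusted p = 0.0507) and lower in Des-/- libraries (-0.44 ± 0.15, edgeR adjusted p = 0.209), without overlap in either. The interaction was -1.27 ± 0.20 (edgeR unadjusted p = 5.5e-05, adjusted p = 0.174), and its genotype difference after swimming was -0.71 ± 0.15 (edgeR adjusted p = 0.0175). Slc25a23, at 48.2, 28.5 and 38.7 CPM in Des+/+ swim and 37.7, 42.7 and 36.0 CPM in Des-/- swim libraries, had the reverse pattern with an interaction of 1.06 ± 0.35 (edgeR adjusted p = 0.208). Slc25a4 (1.42 ± 0.47), Slc25a20 (1.21 ± 0.40) and Slc25a37 (-0.67 ± 0.21) followed, with edgeR adjusted p of 0.214, 0.212 and 0.206. Slc25a37 was at 45.6, 36.9 and 42.8 CPM in Des+/+ swim and 46.5, 34.8 and 39.1 CPM in Des-/- swim libraries, both near its Des-/- non-swim level. The summed erythroid markers stood at 1394 to 2180 CPM in Des+/+ swim and 491 to 2921 CPM in Des-/- swim libraries, and all 6 tested had an unadjusted interaction p under 0.05 with a median log2 of -3.54; their part in the Slc25a37 and Slc25a24 values was not tested.

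**Figure D4:**
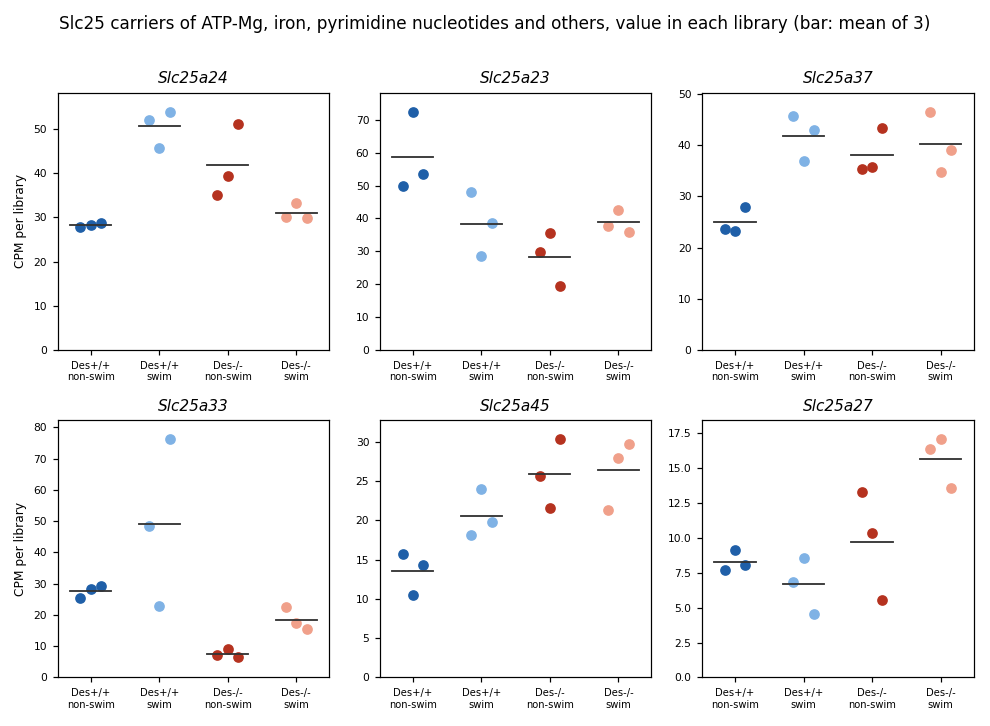
Level of 6 Slc25 carriers in each library, in CPM on a linear axis from 0, for the 4 groups (points are the 3 libraries, bars their mean). Slc25a24 has its highest mean in Des+/+ swim libraries (45.8 to 53.9 CPM), which overlap the Des-/- non-swim libraries (35.2 to 51.2 CPM). It is lowest in Des+/+ non-swim libraries (27.9 to 28.8 CPM), whereas Slc25a33 is lowest in Des-/- non-swim libraries (6.56 to 8.95 CPM).

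Carriers with related substrates were compared as a ratio of their CPM per kb within each library, which removes the scaling between libraries. The 7 pairs were chosen with earlier results of these data known, and 6 could be tested. An exact two-sided permutation test used 400 arrangements within swimming state, with a smallest possible p of 0.005. Its p-values were adjusted over the 6. Slc25a36/Slc25a33 was 0.389 to 0.506 in Des+/+ non-swim and 1.31 to 1.48 in Des-/- non-swim libraries, and 0.147 to 0.481 and 0.506 to 0.934 after swimming, so that the genotypes did not overlap in either state. The log2 ratio was 1.49 higher in Des-/- (exact permutation p = 0.005, adjusted p = 0.03). Slc25a13/Slc25a12, citrin to aralar, was 0.896 to 1.15 in Des+/+ non-swim and 0.588 to 0.960 in Des-/- non-swim libraries, which overlapped, and 0.805 to 1.06 and 0.410 to 0.611 after swimming, which did not. It was lower in Des-/- by a log2 difference of -0.66 (exact permutation p = 0.01, adjusted p = 0.03).

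Slc25a5/Slc25a4 was 0.0615 to 0.105 in Des+/+ non-swim and 0.144 to 0.399 in Des-/- non-swim libraries, a log2 difference of 1.42, but after swimming it was 0.0906 to 0.139 and 0.111 to 0.155, a difference of 0.15. Over both states the difference of 0.79 did not pass the test after adjustment (exact permutation p = 0.03, adjusted p = 0.06). Slc25a24/Slc25a23 was higher in Des-/- by 1.60 without swimming and had a log2 difference of -0.74 after swimming, which gave 0.43 over both (exact permutation adjusted p = 0.438). Slc25a37/Slc25a28 (0.11, exact permutation adjusted p = 0.705) and Slc25a40/Slc25a39 (0.30, exact permutation adjusted p = 0.255) did not pass the test, and Slc25a22/Slc25a18 could not be tested because Slc25a18 had too few counts. Leaving out both Des-/- libraries numbered 3 took both called ratios to an adjusted p of 0.06 in the exact permutation test. That test then had fewer than 400 arrangements. The log2 differences were 1.34 for Slc25a36/Slc25a33 and -0.65 for Slc25a13/Slc25a12.

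**Figure D5:**
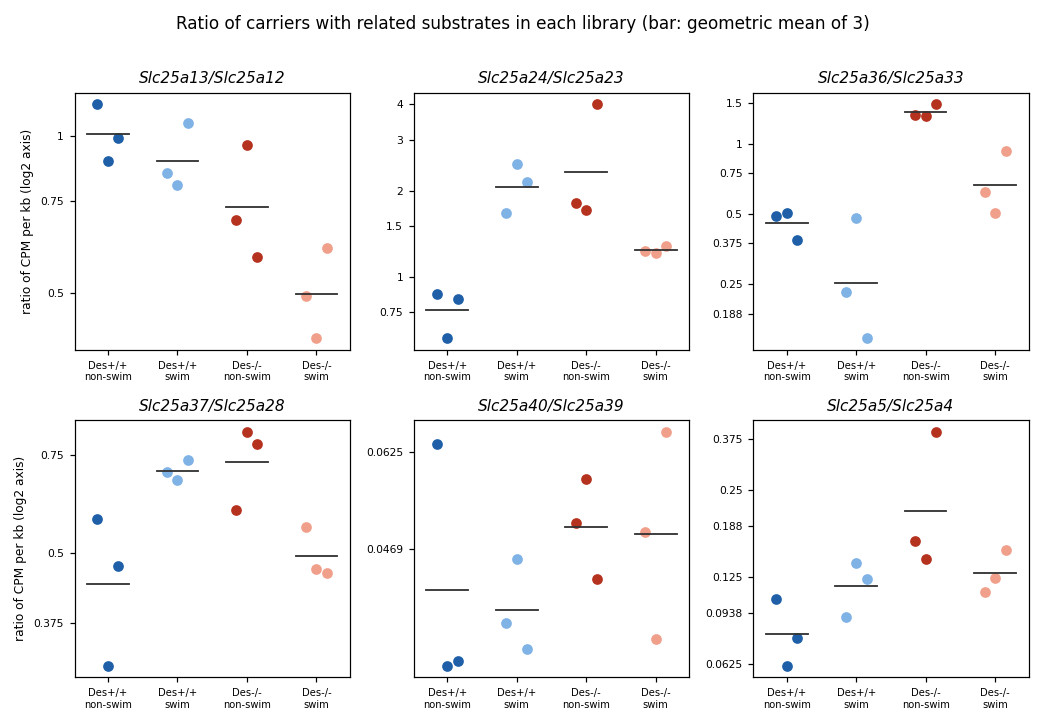
Ratio of the CPM per kb of 6 pairs of Slc25 carriers in each library, on a log2 axis, for the 4 groups (points are the 3 libraries, bars their geometric mean). Slc25a36/Slc25a33 is at 1.31 to 1.48 in Des-/- non-swim libraries and at 0.389 to 0.506 in Des+/+ non-swim libraries.

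Members of the carrier family that bear other symbols, and the machinery that handles carriers, were listed beside them. Without swimming 3 of the 4 tested carriers with other symbols differed: Ucp3, an uncoupling protein of muscle, fell from a mean of 43.1 to 2.97 CPM (log2 -3.87 ± 0.67, edgeR adjusted p = 0.002), Mtch2, an outer membrane relative, fell from 139 to 64.1 CPM (-1.12 ± 0.14, edgeR adjusted p = 0.00082), and Mtch1 rose from 240 to 361 CPM (0.59 ± 0.16, edgeR adjusted p = 0.0182). After swimming 0 of these 4 passed the test, with Ucp3 at 23.5 CPM in Des+/+ and 26.7 CPM in Des-/- libraries. Of 16 genes that import carriers into the inner membrane, 9 were lower and 0 higher without swimming, where 18% of all genes were lower and 14% higher. Their median log2 change was -0.65, against 0.04 for all genes. Timm8b (-1.07 ± 0.14) and Timm10 (-1.36 ± 0.21), chaperones of the intermembrane space, and Timm29 (-1.02 ± 0.16), a subunit of the carrier translocase, had the smallest p (edgeR adjusted p between 0.000903 and 0.00133). After swimming 3 were lower, where 5.57% of all genes were: Timm8b, Timm29 and Tomm70a, the import receptor for carriers (log2 -0.89 ± 0.15, -0.75 ± 0.16 and -0.71 ± 0.15, with edgeR adjusted p between 0.0106 and 0.0201).

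Of 18 other transporters of the inner membrane 12 differed without swimming, 8 lower and 4 higher, where 32% of all genes were called (18% lower and 14% higher). Their median log2 change was -0.24. The smallest p belonged to Mpc1 (log2 -1.96 ± 0.23) and Mpc2 (-1.82 ± 0.22), which together form the mitochondrial pyruvate carrier, and to Sfxn3 (0.86 ± 0.14), a sideroflexin. After swimming 4 differed, 3 lower and 1 higher, where 10.6% of all genes were called. Mpc1 (-1.27 ± 0.23) and Mpc2 (-0.78 ± 0.21) were among the lower ones, and Sfxn1 (0.58 ± 0.16), a serine transporter, was higher. The edgeR adjusted p of these values lay between 0.00082 and 0.0409.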

How the data were processed

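Per the labels and the study's methods, the authors aligned 100 bp single-end poly-A reads to GRCm38 with HISAT2 2.2.1, handled them with SAMtools 1.13 and made the deposited counts per gene with HTSeq in its reverse-strand mode. The labels name an unstranded and the methods a directional library kit. Each of the 12 libraries pooled cells of several mice.

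Counts of all 21493 genes were fitted in edgeR 4.0.16 (R 4.3.3) with TMM scaling, filterByExpr (13158 genes kept), a mean for each of the 4 groups and the quasi-likelihood test, with Benjamini-Hochberg adjustment over all genes and a threshold of 0.05. The script was tested on simulated data. Rows that named no gene were left out (34.0% to 64.5% of uniquely aligned reads had no feature). The common biological coefficient of variation was 0.271, and 3 counts in a library were taken as the detection floor. Ratios used CPM plus 0.5 and exact permutation tests. Alternatives were DESeq2 1.42.0, other scalings, no filter, fewer libraries, the study's own filter and a replicate block. Same-numbered Des-/- libraries deviated together across swimming states (correlations 0.371, 0.33 and 0.606), so the swimming comparison in Des-/- was also fitted with the block, which called 0 members too.

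Members are all genes named Slc25a and a number. Named are the 5 highest by level, called members of large change, the 5 of smallest interaction p, paired carriers, uncalled members against the median and the 3 smallest p of each other list. The groups by substrate, the other gene lists and the pairs were chosen with earlier results of these data known. The values of 1 member and 1 other transporter are not reported here; both count in the totals. Exon lengths came from GENCODE M21.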

Additional observations from a re-analysis of the deposited data

Results flagged for a closer look

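Slc25a24 is set apart because every swim library lay above every non-swim library in Des+/+ and below every non-swim library in Des-/- cardiomyocytes. The swimming change in Des-/- minus that in Des+/+ was -1.27 on the log2 scale, and the interaction did not pass the test (edgeR adjusted p = 0.174). Slc25a23 is set apart for the reverse pattern, lower after swimming in every Des+/+ and higher in every Des-/- library, with a difference of 1.06 (edgeR adjusted p = 0.208). Its log2 changes of -0.61 ± 0.24 in Des+/+ and 0.46 ± 0.25 in Des-/- did not pass the test (edgeR adjusted p = 0.195 and 0.361). In Des-/- the lowest swim library was at 36.0 CPM and the highest non-swim library at 35.6 CPM. Such opposite changes without overlap were found in 267 of the 13158 genes tested (2.03%).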

How the results depend on the processing

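The count of members called between genotypes without swimming stayed between 18 and 23 in every alternative (22 with TMM and edgeR), and 17 members were called in all 19 alternative fits. Slc25a22, Slc25a24, Slc25a29 and Slc25a51 were among those that were not. Upper-quartile scaling raised the median change of all genes there by 0.10 on the log2 scale, with 19 members called, 15 lower and 4 higher. After swimming (8 members) DESeq2 called 13, the fit without both Des-/- libraries numbered 3 called 5, and fits that left out a single library called 0 to 12, with 0 members called in all of them. For swimming in Des+/+ (0 members) DESeq2 called 3, RLE scaling 1, no filter on low counts 1, the fit of only the libraries compared 2, the fit without both Des-/- libraries numbered 3 called 3, the study's filter (unadjusted p of at most 0.05, absolute log2 of at least 0.6, mean count of at least 20) 9, and fits without a single library 0 to 2. For swimming in Des-/- (0 members) DESeq2 called 1 and the study's filter 3. For the interaction (0 members) they called 2 and 11. The shares of all genes called by these alternatives are not given here, so their member counts have no background. An unadjusted edgeR p under 0.05 alone was found for 2697 of the 13158 genes tested for swimming in Des+/+. It was found for 2201 for swimming in Des-/- and for 2148 for the interaction. The cause of these shifts was not tested.

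With the replicate number as a block, 22 members were called between genotypes without swimming, 10 after swimming, and 0 in the other comparisons. Outside the Des-/- swimming comparison the numbers did not pair the libraries (correlations of same-numbered deviations from -0.434 to 0.149). The paired form of the ratio test gave an adjusted p of 0.125 for Slc25a36/Slc25a33 (log2 1.49) and for Slc25a13/Slc25a12 (-0.66). Its smallest possible p before adjustment is 0.03125 over 64 arrangements, which limits what it can call. Without both Des-/- libraries numbered 3 these ratios were 1.34 and -0.65, each with an exact permutation adjusted p of 0.06 from fewer than 400 arrangements. Leaving out single libraries gave log2 ratios of -0.76 to -0.58 for Slc25a13/Slc25a12, 0.56 to 0.93 for Slc25a5/Slc25a4 (past the threshold without Des+/+ swim replicate 2 or Des-/- swim replicate 1), and -0.0153 to 0.203 for Slc25a37/Slc25a28, which was below 0 without Des+/+ non-swim replicate 2.

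With 3 pooled libraries a group, p-values measure the spread between pools. The smallest library held 4320819 reads, where 3 counts are 0.694 CPM, so values near that level are imprecise. Slc25a31 (3 counts in that library) and Slc25a53 (2 counts in Des-/- non-swim replicate 1) were tested and had such values.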
